A study of Homo sapiens with 12 samples.

Results

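The comparison set 4 arrays of U-H01 labelled uninduced against 4 arrays of the same line labelled induced, which are 8 of the 12 arrays of the series. U-H01 is a Hodgkin lymphoma cell line. Per the labels' protocols its cells were infected with short hairpins against Rel-B and cRel, with different sequences for each target, and grown with 20% FBS. Part of each transduced population received doxycycline, which switches the hairpin on, and the rest did not, so the uninduced arrays also hold infected cells. The members were chosen by title: the populations B1 and B2, each with 2 uninduced arrays (Un1 and Un2) and 2 arrays labelled induced (D1 and D2). The treatment label of the B2 arrays labelled induced reads Seq2, and which hairpin B1 or B2 carries is not spelled out. No source used here gives how long the time points were. The other 4 arrays hold HBL-1, a lymphoma line of the activated type of diffuse large B-cell lymphoma, infected in the same way and grown with 10% FBS, and serve as an outside reference below. The question of the study was which genes depend on the individual NF-kB subunits. Separate cultures behind the arrays are not stated, so that the p-values rest on a spread between arrays that may be technical.

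NF-kB factors are dimers that drive survival, inflammatory and lymphocyte genes. RelA and cRel act mainly in the canonical pathway, and RelB acts in the noncanonical one. Hodgkin Reed-Sternberg cells descend from B cells but have lost much of the B-cell programme, and they carry high NF-kB and cytokine-receptor activity. Values below are deposited log2 levels, so that a difference of 1 is a 2-fold change, and 4 levels in a row stand in the order B1 first time point, B1 second time point, B2 first time point, B2 second time point.

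The level of RELB, the gene of RelB, was 7.23, 7.38, 7.54 and 7.45 in the uninduced arrays and 7.22, 7.26, 7.39 and 7.14 in those labelled induced. All 4 pairs were lower in the array labelled induced, but the groups overlapped, and the difference of -0.15 ± 0.09 (standard error of the fit) did not pass the test, with an adjusted p of 0.209 from limma. The level of REL, the gene of cRel, was 10.05, 9.98, 9.92 and 9.88 in the uninduced arrays and 10.14, 10.30, 9.95 and 10.26 in those labelled induced. REL was higher in all 4 pairs, with overlapping groups, and its difference of 0.20 ± 0.09 did not pass either (adjusted p = 0.0721, limma). REL passed as higher without B2 D1 (0.26, adjusted p = 0.0401, limma). With each array centred on the median of its tested probe sets REL passed too (0.34, adjusted p = 0.00519, limma). It also passed with the trend and robust options of eBayes, among the probe sets above the median level and at the second time point alone, with adjusted p in limma of 0.0432, 0.0482 and 0.0261. Neither target was shown to be lower, so the arrays are called "labelled induced" throughout. In a check of genes that mark the identity of the cells, 4 of these 8 arrays failed to match the remaining 4. Whether the groups are the same cells with and without a hairpin, or different cells, cannot be told apart in these data. "Rose" and "fell" below mean a higher or a lower level on the arrays labelled induced, at an adjusted p under 0.05, and carry no statement about induction.

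Replicate spread was small beside the difference between the groups. Over 19460 probe sets, uninduced arrays correlated with each other at 0.991 to 0.996 and arrays labelled induced at 0.992 to 0.994, whereas arrays of different groups correlated at 0.893 to 0.910. With the HBL-1 arrays, those labelled induced correlated at 0.904 to 0.917 and the uninduced ones at 0.886 to 0.899, so that the U-H01 groups were about as far from each other as from another lymphoma line. Of 18417 genes tested, 8435 passed (45.8%), of which 4115 rose (22.3%) and 4320 fell (23.5%). In 7573 genes (41.1%) the 4 and 4 levels did not overlap. Most of these differences were small, with 3130 rises and 2914 falls of at most 1 log2 unit. Among changes over 2-fold, falls were more numerous, with 1406 (7.63%) against 985 rises (5.35%), and their median difference was -1.67 against 1.48. With each array centred on the median of its tested probe sets this balance turned, to 1203 falls and 1238 rises. Between 5 and 8 log2 units there were 48 falls and 23 rises. The split of calls depends on the scaling. Of the genes called, 48.8% were higher on the deposited values, 55.7% after quantile normalization and 67.2% with each array centred in that way. The last of these moved the median difference over the tested probe sets from 0.03 to 0.16. Counts for a gene list are therefore followed by those with centred arrays, rises and falls in the same order. Small differences within a list are to be read against that shift. List counts are to be read against the shares over all genes, 22.3% that rose and 23.5% that fell. Over all probe sets the array medians were alike, at 5.82 to 5.88 (uninduced) and 5.79 to 5.87 (labelled induced). The shares over all genes take in genes at background, and no share among expressed genes was computed. With only the probe sets above the median level tested, 3255 genes rose and 3036 fell.

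**Figure D1:**
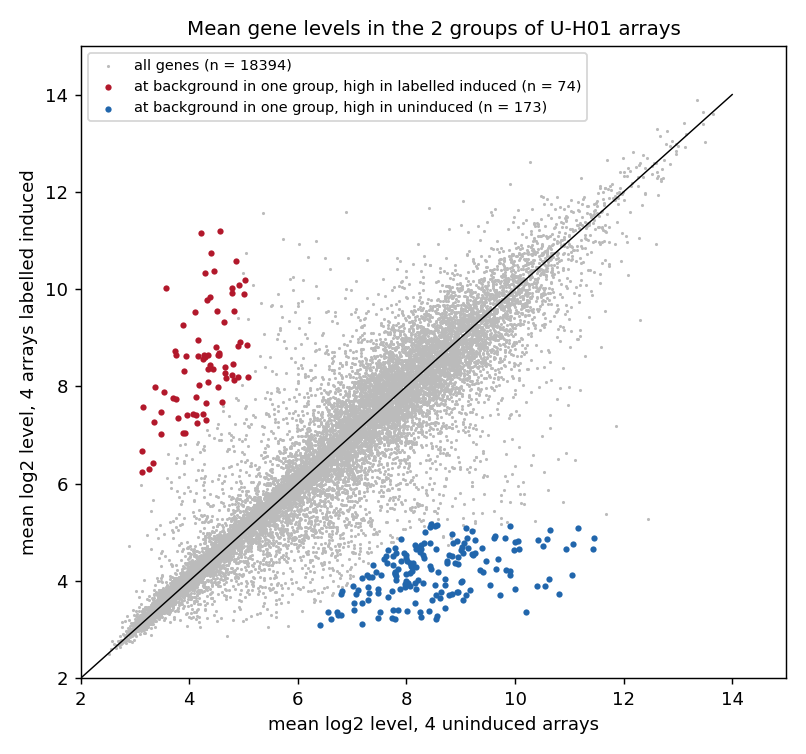
Mean log2 level of each gene in the 4 uninduced arrays (x axis) against its mean in the 4 arrays labelled induced (y axis), with the line of equality. Red points are 74 genes at background in every uninduced array and at least 3 log2 units higher in the arrays labelled induced, and blue points are 173 genes with the opposite pattern. 23 genes that are not reported here are not drawn.

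A level of unexpressed genes was taken from 341 olfactory receptor genes, whose 95th percentile lay between 5.19 and 5.38 on the 8 arrays. By this measure 74 genes were at background in all 4 uninduced arrays and at least 3 log2 units higher in those labelled induced, with a median difference of 4.06. The opposite pattern held for 173 genes, with a median difference of -4.19. Any rise or fall of at least 8-fold was found in 130 genes (0.706%) and 247 genes (1.34%). HBL-1 gave an outside level for both sets. Of the 74 genes high in the arrays labelled induced, all 4 HBL-1 arrays lay above the midpoint of the U-H01 groups for 34 and below it for 37. Of the 173 genes high in the uninduced arrays, they lay above it for 44 and below it for 124.

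Among the 11th to 25th largest rises were genes of B-cell receptor signalling and leukocyte surface proteins. CD79A, a signalling chain of the B-cell receptor, was at 5.83, 5.55, 5.70 and 5.84 in the uninduced arrays and at 10.91, 11.34, 10.75 and 11.15 in those labelled induced. The difference was 5.31 ± 0.11 (adjusted p = 2.21e-12, limma), and HBL-1 ran from 11.24 to 11.33. PRKCB, the protein kinase C that links the B-cell receptor to NF-kB, rose by 5.17 ± 0.09, from 5.10, 4.70, 4.94 and 4.95 to 10.22, 10.03, 10.04 and 10.09. CD53, a leukocyte tetraspanin, rose by 5.34 ± 0.12, from 4.77, 5.38, 5.07 and 4.71 to 10.41, 10.46, 10.22 and 10.20. For both genes the uninduced levels lay near the background of the arrays, whereas the HBL-1 means were high, at 9.75 for PRKCB and 12.06 for CD53. HCLS1, a haematopoietic actin regulator, rose by 4.90 ± 0.10 to a mean of 9.91 ± 0.07. CD48, a surface ligand of the SLAM family, rose by 4.90 ± 0.11 to 10.92 ± 0.16, and COBLL1 rose by 5.0 ± 0.09 to 8.74 ± 0.11 (all SD, n = 4).

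Other rises in this range concerned chromatin, lipid and proteolysis genes. STAG2, a subunit of the cohesin ring, was at 4.18, 3.86, 3.61 and 3.86 in the uninduced arrays, within background on all 4. It was at 9.52, 9.31, 9.23 and 8.99 in those labelled induced and at 8.67 to 8.93 in HBL-1, so that the uninduced U-H01 arrays stood apart from both. UBE2J1, a ubiquitin-conjugating enzyme of the endoplasmic reticulum, rose by 5.44 ± 0.10, and CERS6, a ceramide synthase, rose by 5.05 ± 0.08. For these genes HBL-1 was low as well, with means of 4.62 and 4.54. F2R, the thrombin receptor, rose by 5.43 ± 0.09 from 4.11 ± 0.11 to 9.54 ± 0.26 (SD, n = 4) and was at 4.08 in HBL-1. RORA, a nuclear receptor, rose by 5.16 ± 0.12. DRAM1, a lysosomal membrane protein tied to autophagy, rose by 5.14 ± 0.13. SERPINB9, the inhibitor of granzyme B, rose by 4.91 ± 0.09, and PLAC8 rose by 4.90 ± 0.16. OR2V1, an olfactory receptor gene, rose by 5.25 ± 0.15, and its value is uncertain because such genes have near-identical copies.

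The 11th to 25th largest falls held receptors for interleukins, leukotrienes and immunoglobulin E. IL1R2, the decoy receptor of interleukin-1, was at 11.77, 11.59, 11.76 and 11.56 in the uninduced arrays and at 5.54, 5.31, 5.62 and 5.01 in those labelled induced. The fall of 6.30 ± 0.09 had an adjusted p of 2.18e-13 in limma. FCER1A, the alpha chain of the high-affinity IgE receptor, fell by 6.0 ± 0.09, from 10.03, 9.80, 9.61 and 9.44 to 3.89, 3.64, 3.67 and 3.69. In both genes the groups were separated by far more than their spread, and HBL-1 was at the level of the arrays labelled induced, with means of 5.06 and 3.80. CYSLTR2, a receptor for cysteinyl leukotrienes, fell by 6.16 ± 0.14 to a mean of 3.83 ± 0.23, and GPR15, a chemoattractant receptor, fell by 5.62 ± 0.19 to 4.22 ± 0.07 (SD, n = 4). SLAMF1, a receptor of activated lymphocytes, fell by 5.43 ± 0.17. PECAM1, an adhesion molecule of leukocytes and endothelium, fell by 5.60 ± 0.09. RGS2, which dampens G-protein signals, fell by 5.40 ± 0.13.

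Enzyme and transport genes made up much of the rest of these falls. CYP51A1, a demethylase of cholesterol synthesis, was at 10.60, 10.59, 10.62 and 10.53 in the uninduced arrays and at 4.29, 5.31, 5.17 and 4.65 in those labelled induced. HBL-1 lay at 10.28 to 10.37, close to the uninduced arrays, so that here the arrays labelled induced stood apart from both. S100A10, the partner of annexin A2, fell by 6.28 ± 0.09 to 4.65 ± 0.11 (SD, n = 4), with HBL-1 at 8.82. SLC16A4, a member of the monocarboxylate transporter family, fell by 6.08 ± 0.15. DHRS2, a short-chain dehydrogenase, fell by 5.79 ± 0.08. AOAH, which removes acyl chains from bacterial lipopolysaccharide, fell by 5.61 ± 0.09. ABCA13, a transporter of the ABC family, fell by 5.70 ± 0.10, and NRN1, or neuritin, fell by 5.58 ± 0.13. CD274, the gene of PD-L1, fell by 5.79 ± 0.15, from 10.38, 10.31, 9.56 and 9.38 to 4.27, 3.96, 4.14 and 4.08.

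**Figure D2:**
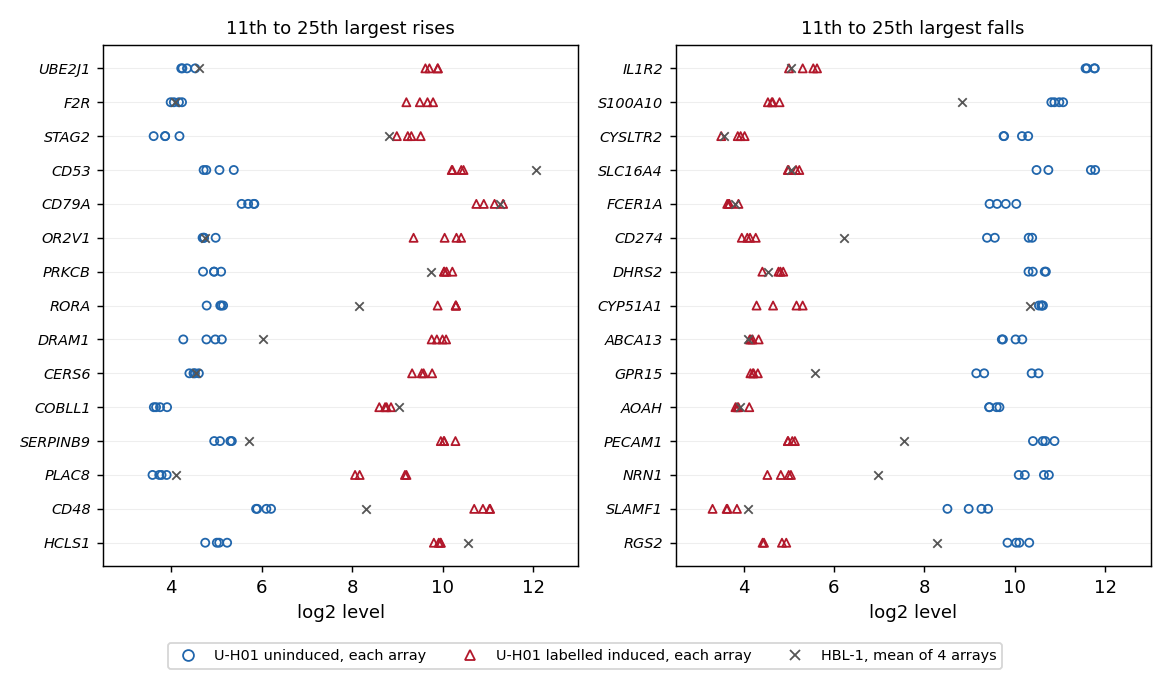
Log2 levels of the 11th to 25th largest rises (left) and falls (right) in each U-H01 array (circles uninduced, triangles labelled induced), with the mean of the 4 HBL-1 arrays as a cross. In every gene the 2 groups of U-H01 arrays are apart, while HBL-1 lies with the arrays labelled induced for CD79A and STAG2, with the uninduced arrays for CYP51A1, UBE2J1 and F2R, and between the groups for DRAM1, PECAM1 and RGS2.

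Promoter sequences were read for the large differences, in the 250 bases before each gene's start, from RefSeq on GRCh38.p14. Such a window was at hand for 14219 genes. The octamer, the letters ATGCAAAT on either strand, is a binding motif of OCT factors, which act in B cells. It was in 1.57% of all windows, in 2.06% of those of genes that rose over 2-fold and in 1.49% of those that fell over 2-fold. Of the genes at background in the uninduced arrays and high in those labelled induced, 3 of 62 windows held it (4.84%), and of the genes with the opposite pattern 3 of 142 did (2.11%). The 4 stretches below belong to genes that rose by over 5 log2 units, chosen after their values were seen. The capitals mark the octamer with up to 30 bases on each side.
ST6GAL1, chr3:186930451-186930518, + strand: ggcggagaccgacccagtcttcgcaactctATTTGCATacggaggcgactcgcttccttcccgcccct
ALDH1A1, chr9:72953074-72953141, - strand: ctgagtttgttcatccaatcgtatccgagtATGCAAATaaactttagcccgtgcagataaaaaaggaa
CD53, chr1:110871134-110871201, + strand: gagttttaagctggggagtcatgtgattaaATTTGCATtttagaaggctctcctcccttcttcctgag
PRKCB, chr16:23835873-23835940, + strand: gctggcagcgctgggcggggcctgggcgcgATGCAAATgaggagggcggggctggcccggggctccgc
The octamer began 45, 58, 46 and 80 bases before the gene start in that order. ST6GAL1 encodes a sialyltransferase and rose by 6.34, and ALDH1A1, a retinaldehyde dehydrogenase, rose by 6.03.

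The interferon-stimulated response element, searched on both strands as GAAA repeated after 2 other bases, is bound by interferon-regulated factors. It was in 2.57% of all windows, in 2.58% of those of genes that rose over 2-fold and in 4.04% of those of genes that fell over 2-fold. It was in 2 of the 62 windows of genes at background only in the uninduced arrays (3.23%) and in 7 of the 142 with the opposite pattern (4.93%). The 4 stretches below come from genes with large falls, chosen after their values were seen, and the capitals mark the element.
IFI44L, chr1:78620345-78620414, + strand: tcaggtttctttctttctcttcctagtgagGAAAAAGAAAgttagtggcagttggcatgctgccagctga
CD274, chr9:5450310-5450379, + strand: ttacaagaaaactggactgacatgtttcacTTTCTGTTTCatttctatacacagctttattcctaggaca
IFI44, chr1:78649741-78649788, + strand: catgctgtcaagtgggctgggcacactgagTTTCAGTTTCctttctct
PAX9, chr14:36657412-36657481, + strand: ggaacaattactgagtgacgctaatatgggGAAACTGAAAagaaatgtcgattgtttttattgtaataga
The element began 73, 202, 18 and 126 bases before the gene start in that order. The windows of IFI44L and CD274 held 2 matches each, and the match nearest the gene start is shown. IFI44 and IFI44L are interferon-induced genes, and PAX9 is a developmental transcription factor that fell by 4.03, from 9.27 ± 0.17 to 5.24 ± 0.19 (SD, n = 4). A kappaB motif, GGGA and CC with 4 bases between them, was in 26.1% of all windows, in 24.4% of those that rose and in 27.9% of those that fell over 2-fold. It was in 14.5% of the 62 windows of genes at background only in the uninduced arrays and in 29.6% of the 142 with the opposite pattern. An AP-1 motif, TGANTCA, was in 4.91%, 3.74%, 4.47%, 6.45% and 5.63% of these 5 sets in the same order. Promoters with fewer than 6 CpG dinucleotides made up 21.7% of all windows, 15.1% of those of genes that rose over 2-fold, 15.6% of those that fell over 2-fold, 40.3% of those of genes at background only in the uninduced arrays and 31.7% of those at background only in the arrays labelled induced. A match is a description of the letters and no evidence of binding.

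A few genes of arachidonate metabolism gave some of the largest separations. Its enzymes release arachidonic acid from membranes and turn it into leukotrienes, prostaglandins and lipoxins. Of 33 genes measured, leukotriene receptors included, 7 rose (21.2%) and 10 fell (30.3%), or 14 and 8 with centred arrays. Over all genes 22.3% rose and 23.5% fell. The list's median was 0.01 against 0.03 over all genes. ALOX15, the 15-lipoxygenase, was at 11.44, 11.33, 11.61 and 11.42 in the uninduced arrays and at 4.78, 4.62, 5.03 and 5.11 in those labelled induced. PLA2G4A, the cytosolic phospholipase that releases arachidonate, was at 7.88, 7.68, 7.92 and 7.71 and at 3.09, 3.25, 3.27 and 3.28. The 2 receptors for cysteinyl leukotrienes moved with them, since CYSLTR1 fell by 5.39 ± 0.10 (adjusted p = 6.48e-13, limma) beside CYSLTR2. ALOX5AP, the protein that presents arachidonate to 5-lipoxygenase, moved the other way, from 5.61, 5.77, 5.33 and 5.40 to 8.50, 8.37, 8.23 and 8.18. LTA4H, which makes leukotriene B4, rose by 1.39 ± 0.09. ALOX5 itself did not pass, at 5.70 ± 0.32 and 5.45 ± 0.05 (SD, n = 4), though it passed as lower without B1 D1 (adjusted p = 0.0434, limma) or B1 Un1 (0.0372), and PTGS2, an inducible prostaglandin synthase, was at background in all 8 arrays. Smaller differences of 0.78 in PTGES2, 0.59 in PTGR2 and -0.82 in PTGES, enzymes that make or reduce prostaglandins, also passed. ALOX5, PTGS2 and PTGES were named after their values were seen.

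A run of neighbouring interleukin receptor genes fell together, and it was singled out after its values were seen. IL1R2, IL1R1, IL1RL2, IL1RL1, IL18R1 and IL18RAP follow each other in the reference gene order, and all 6 fell, with a median of -3.55. The call of IL1RL2 is weak (adjusted p = 0.0467, limma). It was lost without B1 D2, B2 D1, B2 D2, B1 Un2, B2 Un1 or B2 Un2 (adjusted p up to 0.186 in limma). It was also lost with the replicate block (0.067), with U-H01 fitted alone (0.0606), with all probe sets tested (0.0585), after quantile normalization (0.067) and with centred arrays (0.447). IL1RL2 did not pass in B1 or B2 alone (adjusted p of 0.271 and 0.113, limma) or at either time point alone (0.181 and 0.241). IL1R1, the signalling receptor of interleukin-1, was at 8.88, 8.85, 8.40 and 8.32 in the uninduced arrays and at 3.57, 3.61, 3.88 and 3.57 in those labelled induced. IL1RL1, the receptor of interleukin-33, was at 8.66, 8.40, 8.0 and 7.96 and at 3.36, 3.20, 3.45 and 3.45. The fall of IL18R1, a chain of the interleukin-18 receptor, was 2.21 ± 0.10 on the log2 scale. IL18RAP and IL1RL2 had differences of -0.64 and -0.21, with all 8 levels at background. IL5RA, the interleukin-5 receptor chain, lies elsewhere and was also named after its values were seen. It was at 8.97, 8.89, 8.15 and 8.20 and at 3.68, 3.49, 3.80 and 3.86. In HBL-1 the levels were 3.64 to 3.89 for IL1R1, 3.38 to 3.68 for IL1RL1 and 3.66 to 3.89 for IL5RA, all at background.

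**Figure D3:**
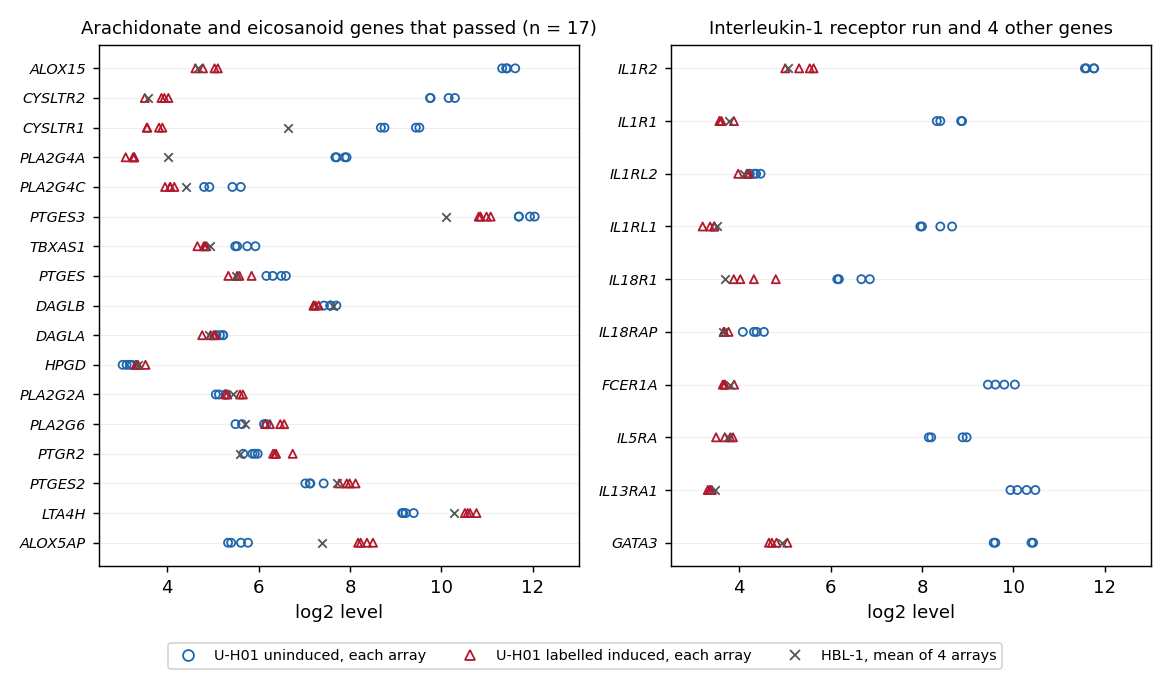
Log2 levels in each U-H01 array (circles uninduced, triangles labelled induced) and the mean of 4 HBL-1 arrays (crosses), for the 17 arachidonate and eicosanoid genes that passed (left) and for the run of 6 interleukin receptor genes with FCER1A, IL5RA, IL13RA1 and GATA3 (right). In the left panel ALOX15, CYSLTR1, CYSLTR2 and PLA2G4A have falls of 4.58 to 6.56 log2 units, and ALOX5AP has the largest rise, 2.79.

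Markers of cell types were then set beside these differences. Of 22 measured B-cell markers, 9 rose and 4 fell (11 and 3 with centred arrays), a higher share of rises than the 22.3% over all genes. CR2, the complement receptor of B cells, rose by 4.44 ± 0.17, CD22, an inhibitory co-receptor, by 4.11 ± 0.12, and PAX5, the B-lineage factor, by 2.76 ± 0.08. PAX5 was far above background in both groups, at 9.05 ± 0.06 and 11.81 ± 0.08 (SD, n = 4), whereas MS4A1, the gene of CD20, was at background in all 8 arrays. Falls included SWAP70, a signalling protein of activated B cells, by 3.06 ± 0.17, and the kinase gene BLK, by 0.79 ± 0.15. The remaining falls in the list were of 0.91 and 0.31. Its median was 0.13 against 0.03 over all genes, and 5 members were at background in all 8 arrays. Of 14 plasma-cell markers, 10 rose and 2 fell (11 and 2 with centred arrays), with a median of 1.09. CD38, a surface enzyme, rose by 6.62 ± 0.12, and PRDM1, the master factor of plasma cells, rose by 3.31 ± 0.11. TNFRSF13B, or TACI, rose by 2.25 ± 0.08 and SLAMF7 by 1.86 ± 0.20. Against these, SDC1, the gene of CD138, fell by 0.39 ± 0.08, and JCHAIN, the immunoglobulin joining chain, differed by -0.86 with both groups at background.

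Of 28 genes linked to the Reed-Sternberg cells of Hodgkin lymphoma, 19 fell and 4 rose (19 and 7 with centred arrays), with a median of -1.74. IL13RA1, a chain of the interleukin-13 receptor, fell by 6.84 ± 0.10, ID2, an inhibitor of B-cell factors, by 5.22 ± 0.14, and GATA3, a T-cell factor expressed aberrantly in these cells, by 5.19 ± 0.18. GATA3 was at 10.43, 10.40, 9.57 and 9.60 in the uninduced arrays and at 4.65, 4.71, 5.05 and 4.81 in those labelled induced. The 4 members that rose were TNFRSF8, the gene of CD30, at 4.70 ± 0.10, TRAF1, an adaptor of TNF receptors, at 2.70 ± 0.15, the receptor gene NOTCH1 at 2.48 ± 0.11, and TNFAIP3, the gene of the NF-kB brake A20, at 2.34 ± 0.15. A named marker of this lymphoma therefore lay on each side, since CD274 was high in the uninduced arrays and TNFRSF8 in those labelled induced.

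Markers of other lineages were in part at background. Of 26 T and NK markers, 15 were at background in all 8 arrays, among them CD3D, CD3E and CD3G, and 4 rose while 1 fell (9 and 1 with centred arrays, and 2 falls without B1 D2). Mean levels of the list ran from 5.02 to 5.12 in the uninduced arrays and from 4.92 to 5.09 in those labelled induced. ZAP70, a kinase of T cells, rose by 2.09 ± 0.11, from 5.15 ± 0.04 to 7.24 ± 0.16, and NKG7, a granule protein, rose by 0.62 ± 0.14. TRAT1 and CD2 passed with differences of 0.41 and 0.36, within background. Of 24 myeloid and dendritic markers, 13 were at background in all 8 arrays, including CD14, LYZ and S100A8. Among the others 1 rose (2 without B2 D1, B2 D2, B1 Un1 or B2 Un2), CD68 by 0.76 ± 0.08, and 4 fell (9 and 3 with centred arrays), among them LAMP3, a protein of mature dendritic cells, by 2.75 ± 0.15, and the chemokine gene CCL22, by 1.75 ± 0.11. CEBPA, a myeloid factor, fell by 0.40 ± 0.08. Of 13 erythroid and megakaryocyte markers 5 were at background in all 8 arrays and only the transferrin receptor gene TFRC passed, at 1.33 ± 0.14 (3 rises with centred arrays). It is expressed in dividing cells of many kinds. Of 22 stromal, endothelial and epithelial markers, 4 fell against 4 that rose (4 and 8 with centred arrays). In this list 8 were at background in all 8 U-H01 arrays, among them CDH5, VWF and EPCAM. Beside PECAM1, CDH2, or N-cadherin, fell by 2.06 ± 0.12 and VIM, or vimentin, by 1.19 ± 0.13, whereas CDH1, or E-cadherin, rose by 2.32 ± 0.11. PDGFRB and PDGFRA had differences of 0.59 and 0.42 at low levels.

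Transcription factors changed on both sides. Of 66 haematopoietic factors, 20 rose and 23 fell (26 and 17 with centred arrays), both above the shares over all genes. Only 6 of these factors were at background in all 8 arrays, while the shares over all genes take in genes at background. No share among expressed genes was computed, so whether the 30.3% and 34.8% here exceed it is not known. AHR, the aryl hydrocarbon receptor, was at 8.65, 8.49, 8.40 and 8.16 in the uninduced arrays and at 3.47, 3.45, 3.34 and 3.30 in those labelled induced, which is background. SATB1, a chromatin organiser of T cells, fell by 4.68 ± 0.12, LEF1, the partner of beta-catenin, by 4.33 ± 0.09, and ZEB2 by 2.62 ± 0.10. RORA led the rises, followed by TFEC at 2.66 ± 0.18, ELF1, an ETS factor, at 1.89 ± 0.10, and RUNX1, a core factor of blood formation, at 1.87 ± 0.11. LEF1 was at 8.98 in HBL-1, like the uninduced arrays at 9.02. Of 48 developmental factors, 6 rose and 12 fell (13 and 8 with centred arrays), and 18 were at background in all 8 arrays. MEIS1, a HOX partner, fell by 3.64 ± 0.07, while its relative MEIS2 rose by 1.39 ± 0.08. HES1, a target of Notch, rose by 3.12 ± 0.18, and FOXD1 fell by 1.76 ± 0.13. NR2F1 fell by 0.72 ± 0.09 and DLX1 by 0.71 ± 0.11, whereas SOX4 rose by 0.96 ± 0.09 and SOX5 by 0.83 ± 0.10. Among the 5 NF-kB subunit genes, 1 rose and 1 fell (3 and 1 with centred arrays). NFKB2 fell by 0.56 ± 0.09 and RELA rose by 0.24 ± 0.08 (adjusted p = 0.0229, limma), a call that was lost without B1 D1, B2 D2, B1 Un2, B2 Un1 or B2 Un2, with adjusted p up to 0.0659. RELA did not pass in B1 or B2 alone (adjusted p of 0.131 and 0.107, limma) or at either time point alone (0.173 and 0.113).

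Innate immunity genes changed in both directions. Of 33 genes of nucleic-acid sensing and the inflammasome, 14 fell and 8 rose (12 and 11 with centred arrays). That is 42.4% and 24.2%, against 23.5% and 22.3% over all genes. The RNA sensors RIGI and IFIH1 fell by 3.06 ± 0.09 and 2.78 ± 0.12, OAS3, which makes the activator of RNase L, by 1.64 ± 0.12, and ZNFX1 by 1.55 ± 0.09. The DNA sensors AIM2 and IFI16 rose by 1.81 ± 0.11 and 1.22 ± 0.13, together with CASP4, an inflammatory caspase, at 1.76 ± 0.12, and the kinase gene TBK1 at 0.78 ± 0.10. RIGI was at 8.62, 8.50, 8.46 and 8.42 in the uninduced arrays and at 5.76, 5.28, 5.54 and 5.18 in those labelled induced, and AIM2 at 5.91, 6.24, 5.92 and 6.06 and 7.93, 8.07, 7.84 and 7.49. Neither pair of groups overlapped. Of 28 Fc, LILR, SIGLEC and lectin receptors, 5 rose and 4 fell (11 and 3 with centred arrays), and 2 rose without B1 D1 or B1 Un1 and 3 without B1 D2, B2 D2 or B1 Un2. The Fc receptor genes FCGR2A and FCGR2B fell by 3.49 ± 0.17 and 1.27 ± 0.09, and CLEC17A, a lectin of B cells, fell by 2.57 ± 0.11. CLEC2D, the ligand of CD161, rose by 4.72 ± 0.17 and CLEC2B by 2.86 ± 0.16. FCGR2A and FCGR2B have close paralogs, so their separation is uncertain.

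Of 40 chemokine and lymphoid G-protein receptors, 10 rose and 8 fell (17 and 6 with centred arrays), and 21 were at background in all 8 arrays. CCR9, a gut-homing receptor, was at 3.91, 4.02, 3.84 and 4.02 in the uninduced arrays and at 8.49, 8.78, 8.19 and 9.02 in those labelled induced. GPR183, which guides B cells by oxysterols, rose by 3.06 ± 0.21, CCR4 by 1.16 ± 0.16, and S1PR1, the receptor for exit from lymphoid tissue, by 1.13 ± 0.10. PTGER4, a prostaglandin E2 receptor, fell by 3.74 ± 0.09, P2RX7, an ATP-gated channel, by 2.22 ± 0.17, and CCR7, a lymph-node homing receptor, by 1.80 ± 0.11. P2RX7 is on the list but is not a G-protein receptor. CCR7 stayed high in both groups, at 12.09 and 10.29. GPR18 fell by 0.75 ± 0.20, a difference of -0.14 in B1, which did not pass alone (adjusted p = 0.484, limma), and -1.35 in B2. At the first and second time point alone GPR18 did not pass either (adjusted p of 0.0885 and 0.0638, limma). In the complement and coagulation list, 7 of 31 rose and 7 fell (11 and 6 with centred arrays). These shares, 22.6% each, lay near the 22.3% and 23.5% over all genes. CFI, a protease that inactivates C3b, fell by 5.26 ± 0.11, and CD55, which speeds decay of complement convertases, fell by 1.61 ± 0.16. CD59, which blocks the membrane attack complex, rose by 3.92 ± 0.11, and CR1, a C3b receptor, by 2.52 ± 0.14. The urokinase gene PLAU fell by 1.67 ± 0.12 and PROS1, the gene of protein S, by 1.67 ± 0.13. SERPINE2 rose by 0.59 ± 0.11.

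In the signalling lists below, counts are to be read against the 22.3% of all genes that rose and the 23.5% that fell. Of 49 PI3K and phosphoinositide genes, 19 rose and 18 fell (24 and 17 with centred arrays). The subunit genes of the gamma isoform rose, with the catalytic PIK3CG at 3.31 ± 0.13 and its regulatory partners PIK3R5 at 3.70 ± 0.10 and PIK3R6 at 3.73 ± 0.19. PIK3R5 was at 5.30, 5.31, 5.59 and 5.32 in the uninduced arrays and at 9.01, 9.14, 8.93 and 9.26 in those labelled induced. DDIT4, an inhibitor of mTOR signalling, rose by 3.13 ± 0.35, with the widest standard error of all genes named. PLCL1 fell by 4.87 ± 0.09, SGK1, a kinase downstream of PI3K, by 3.84 ± 0.14, TBC1D4 by 2.59 ± 0.09 and INPP1, an inositol phosphatase, by 2.55 ± 0.12.

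Of 37 genes of cyclic nucleotide signalling, 9 rose and 12 fell (14 and 11 with centred arrays). PDE5A, a cGMP phosphodiesterase, was at 8.67, 8.48, 8.44 and 8.30 in the uninduced arrays and at 3.67, 3.70, 3.55 and 3.51 in those labelled induced, which is background. The anchoring proteins AKAP12 and AKAP7 fell by 1.89 ± 0.12 and 1.86 ± 0.10, and PDE4D, a cAMP phosphodiesterase, by 1.70 ± 0.11. ADCY7, an adenylyl cyclase, rose by 2.39 ± 0.12, and the CREB family genes CREB5, CREM and CREB3L2 rose by 1.58 ± 0.09, 1.33 ± 0.12 and 1.0 ± 0.09. In the list of WNT, Notch, Hedgehog and Hippo genes 25 of 61 fell and 8 rose, an imbalance that kept its direction with centred arrays (20 and 13). DTX3L, a ubiquitin ligase, fell by 4.67 ± 0.09, FZD6, a WNT receptor, by 4.35 ± 0.12, WWTR1, the Hippo effector TAZ, by 3.62 ± 0.12, and the ligand gene WNT5B by 3.53 ± 0.12. PTCH1, the Hedgehog receptor, rose by 2.84 ± 0.12, the co-repressors TLE1 and TLE4 by 1.5 ± 0.13 and 1.24 ± 0.09, and NOTCH2 by 0.71 ± 0.08.

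Of 62 TGF-beta, BMP and growth-factor genes, 16 rose and 16 fell (20 and 16 with centred arrays). The BMP-responsive factors SMAD1 and SMAD5 fell by 2.34 ± 0.12 and 2.15 ± 0.09, with the receptor gene ACVR2A by 2.0 ± 0.13, and SMAD3, which carries TGF-beta signals, rose by 2.06 ± 0.20. MERTK, a receptor for dying cells, fell by 3.61 ± 0.10. NRG1, PDGFD and DDR2 rose by 2.0 ± 0.12, 1.95 ± 0.13 and 1.07 ± 0.13. Of 49 guidance genes, 10 rose and 10 fell (23 and 10 with centred arrays). EPHB1, an ephrin receptor, was at 10.16, 10.06, 10.05 and 9.92 in the uninduced arrays and at 4.85, 4.84, 4.82 and 4.73 in those labelled induced, with HBL-1 at 9.32. Its ligand gene EFNB2 fell by 3.87 ± 0.09, SEMA6A by 5.02 ± 0.10 and the semaphorin receptor gene NRP2 by 2.60 ± 0.11. PLXNC1 and its ligand SEMA7A both rose, by 2.72 ± 0.15 and 1.98 ± 0.17. NTN4 rose by 1.41 ± 0.10 and SEMA4D by 1.10 ± 0.11.

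Of the structural and transport lists, the actin list exceeded the shares over all genes in both directions, and the others lay near or below them. Only 3 of the actin genes were at background in all 8 arrays, and no share among expressed genes was computed. Of 54 actin and motility genes, 19 rose and 19 fell (24 and 17 with centred arrays), both above the shares over all genes. MYO6, a myosin that moves towards the minus end, fell by 4.12 ± 0.08, CNN2, a calponin, by 3.75 ± 0.19, LIMA1 by 2.65 ± 0.15 and FMNL2, a formin, by 2.17 ± 0.09. PDLIM1 rose by 4.30 ± 0.10, MYO1D by 3.20 ± 0.12, the formin gene DIAPH2 by 2.99 ± 0.11, and MSN, or moesin, by 2.81 ± 0.10. Of 56 extracellular matrix genes, 9 rose and 12 fell (19 and 11 with centred arrays), and 22 were at background in all 8 arrays. TIMP1, a metalloproteinase inhibitor, fell by 3.67 ± 0.10, ADAMTS6 by 2.57 ± 0.09 and MMP7 by 2.01 ± 0.12. LAMC1, a laminin chain, was at 4.31, 4.31, 4.52 and 4.24 in the uninduced arrays and at 8.67, 8.68, 8.46 and 8.80 in those labelled induced. ADAM19 rose by 3.97 ± 0.13, COL6A3 by 3.34 ± 0.18 and FBN2, or fibrillin-2, by 3.0 ± 0.12.

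Of 57 nutrient transporters, 15 rose and 15 fell (21 and 14 with centred arrays). SLC16A10, an aromatic amino acid transporter, rose by 3.71 ± 0.11, SLC44A1, a choline transporter, by 2.84 ± 0.10, and SLC1A4, a carrier of small neutral amino acids, by 2.71 ± 0.15. SLC39A8, a zinc importer, fell by 1.92 ± 0.09, SLC16A7 by 1.80 ± 0.10 and SLC27A2 by 1.28 ± 0.09. Of 62 ion channels and pumps, 15 rose and 16 fell (24 and 14 with centred arrays). PIEZO2, a mechanosensitive channel, was at 9.91, 9.77, 9.50 and 9.37 in the uninduced arrays and at 4.90, 4.75, 4.76 and 5.29 in those labelled induced. CLIC2 fell by 5.11 ± 0.13, the potassium channel gene KCNMA1 by 2.71 ± 0.15 and the calcium channel gene CACNA1E by 2.46 ± 0.09. ATP1B1, a subunit of the sodium pump, rose by 3.54 ± 0.14, KCNQ5 by 3.45 ± 0.10, ATP2A3, a calcium pump of the endoplasmic reticulum, by 2.75 ± 0.09, and AQP3, a water and glycerol channel, by 2.38 ± 0.10.

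Metabolic lists differed in their balance. Of 78 glutathione, oxidative-stress and xenobiotic genes, 29 fell and 17 rose (24 and 24 with centred arrays). GSTP1, a glutathione transferase, was at 10.51, 10.51, 10.80 and 10.59 in the uninduced arrays and at 5.63, 5.65, 6.22 and 5.98 in those labelled induced. CBR1, a carbonyl reductase, moved from 4.44 ± 0.26 to 8.36 ± 0.11 (SD, n = 4), and GSTO1 and PRDX2 rose by 1.99 ± 0.10 and 1.80 ± 0.10. Of 48 sphingolipid and glycolipid genes, 20 fell and 9 rose (18 and 12 with centred arrays). SGPL1, which cleaves sphingosine-1-phosphate, fell by 2.67 ± 0.12, and SGPP2, which dephosphorylates it, rose by 4.30 ± 0.08. CERK, the ceramide kinase, rose by 1.64 ± 0.10, and SMPD3, a sphingomyelinase, fell by 2.82 ± 0.16. The glycosyltransferase genes B4GALNT1 and GCNT2 fell by 3.04 ± 0.11 and 3.78 ± 0.09, while GALNT14 rose by 3.10 ± 0.08. Of 46 genes of fatty-acid oxidation, peroxisomes and lipid storage, 9 rose and 12 fell (13 and 10 with centred arrays). Both chains of the mitochondrial trifunctional protein fell, HADHA by 1.43 ± 0.07 and HADHB by 1.75 ± 0.08, while ACADM, the medium-chain dehydrogenase, rose by 1.02 ± 0.08 and ACSL5 by 1.80 ± 0.09. LPIN2 fell by 2.02 ± 0.11 and PLIN2, a lipid droplet coat, by 1.73 ± 0.10.

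Genes of mitochondria and nucleotide synthesis rose more often than the 22.3% over all genes. Few were at background in all 8 arrays, with 2, 1 and 5 genes in the lists below in turn. The 22.3% takes in genes at background, and no share among expressed genes was computed. How far these lists exceed expressed genes is therefore not known. Of 44 genes of the tricarboxylic acid cycle and mitochondrial carriers, 18 rose and 12 fell (23 and 11 with centred arrays), but the falls were larger. IDH2, the mitochondrial isocitrate dehydrogenase, fell by 4.10 ± 0.12, and the carriers SLC25A4 and SLC25A13 fell by 4.08 ± 0.11 and 3.90 ± 0.11. PDP1, which activates pyruvate dehydrogenase, rose by 2.54 ± 0.09, DLST by 1.17 ± 0.10 and OGDH by 0.99 ± 0.09. The last 2 are parts of the same oxoglutarate dehydrogenase complex. IDH2 was at 9.75, 9.87, 9.71 and 9.65 in the uninduced arrays and at 6.0, 5.49, 5.89 and 5.22 in those labelled induced. Of 50 mitochondrial ribosome genes, 20 rose and 5 fell (28 and 2 with centred arrays, and 3 falls without B1 Un2), with a median of 0.19. These changes were small, with MRPL17 at 0.88 ± 0.09 and MRPL28 at 0.76 ± 0.08 the largest rises and MRPS33 at -1.26 the largest fall. Of 49 nucleotide and one-carbon genes, 21 rose and 12 fell (28 and 10 with centred arrays), with a median of 0.17. ADSL, of purine synthesis, rose by 1.33 ± 0.09, UMPS, of pyrimidine synthesis, by 0.98 ± 0.10, and TK1, the thymidine kinase of dividing cells, by 0.97 ± 0.14. CTPS2, a CTP synthase, fell by 3.95 ± 0.15, ADA, the adenosine deaminase, by 1.31 ± 0.12, and TK2, the mitochondrial thymidine kinase, by 1.37 ± 0.11.

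Genes of translation charging and protein turnover fell more often than the 23.5% over all genes. In both lists 0 genes were at background in all 8 arrays. The 23.5% takes in genes at background, and no share among expressed genes was computed. How far these lists exceed expressed genes is therefore not known. Of 22 aminoacyl-tRNA synthetases, which load amino acids onto tRNA, 14 fell and 2 rose (9 and 3 with centred arrays), with a median of -0.35. WARS1, which is also induced by interferon, was at 11.69, 11.57, 10.77 and 10.62 in the uninduced arrays and at 9.22, 9.01, 8.60 and 9.08 in those labelled induced. LARS1 fell by 1.40 ± 0.12, MARS1 by 1.24 ± 0.15 and EPRS1 by 0.95 ± 0.11. The exceptions were IARS1 at 0.47 ± 0.12 and QARS1 at 0.44 ± 0.10, and 4 rose without B1 D2. Of 36 proteasome genes, 18 fell and 6 rose (12 and 8 with centred arrays), with a median of -0.24. PSMB9, a catalytic subunit of the immunoproteasome, fell by 1.53 ± 0.08, whereas PSMB10, another such subunit, rose by 0.66 ± 0.11 and the constitutive PSMB6 by 0.71 ± 0.10. The ATPase subunit genes PSMC4 and PSMC2 fell by 0.91 ± 0.09 and 0.89 ± 0.07, and the activator genes PSME1 and PSME2 rose by 0.47 ± 0.09 and 0.59 ± 0.08.

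Of 45 autophagy and endocytic genes, 19 fell and 9 rose (18 and 16 with centred arrays). ATG7 and ATG3 act in the same conjugation pathway and moved apart, with ATG7 at 2.05 ± 0.10 and ATG3 at -1.61 ± 0.08. RAB27A, which docks secretory granules, rose by 2.37 ± 0.09, and its effector gene SYTL2 fell by 3.42 ± 0.13. STX11, a syntaxin of lymphocyte granule release, rose by 2.25 ± 0.08. Of 45 lysosomal genes, 14 rose and 18 fell (20 and 16 with centred arrays). CTSS, the cathepsin that trims the MHC class II invariant chain, was at 5.39, 5.69, 5.73 and 5.74 in the uninduced arrays and at 9.18, 9.32, 8.84 and 8.94 in those labelled induced. CTSH rose by 1.77 ± 0.13 and CTSO by 1.09 ± 0.11, while CTSC fell by 1.89 ± 0.11. The glycosidase genes FUCA1 and NEU1 fell by 1.97 ± 0.10 and 1.75 ± 0.10. Of 80 ubiquitin ligases and deubiquitinases, 30 fell and 19 rose (26 and 29 with centred arrays). TRIM2 fell by 3.85 ± 0.10 and USP53 by 3.23 ± 0.14, while RNF149 rose by 3.18 ± 0.09 and TRIM32 by 2.53 ± 0.10.

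Balance in the cell-cycle lists depended on the scaling. Of 40 G1/S and replication genes, 11 rose and 12 fell (14 and 5 with centred arrays). The count of falls was 6 without B2 D2 or B2 Un2 and 7 without B2 Un1. Of 40 G2/M and spindle genes, 16 rose and 16 fell (19 and 11 with centred arrays). PRIM1, the primase subunit, fell by 2.21 ± 0.08, and MCM6, of the replicative helicase, by 0.76 ± 0.08. E2F2 rose by 1.94 ± 0.09, CCNE2, a cyclin of S-phase entry, by 1.86 ± 0.15, and POLE, the leading-strand polymerase, by 1.45 ± 0.08. DLGAP5 and the checkpoint kinase gene BUB1B rose by 1.75 ± 0.13 and 1.58 ± 0.10, and CENPF and CDC25C fell by 1.35 ± 0.08 and 0.96 ± 0.09. MKI67, the proliferation marker Ki-67, rose by 0.97 ± 0.12, from 9.49 ± 0.30 to 10.46 ± 0.14 (SD, n = 4). Of 32 p53 targets, 8 rose (5 without B1 D1, B2 D2 or B1 Un1) and 7 fell (12 and 6 with centred arrays), with PMAIP1, or NOXA, down by 2.13 ± 0.12 and TNFRSF10B, a TRAIL receptor, up by 1.05 ± 0.12. MDM2, the p53 ubiquitin ligase, rose by 0.79 ± 0.08.

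DNA repair and chromatin genes rose in a larger share than all genes. Only 1 repair gene and 4 chromatin genes were at background in all 8 arrays, and no share among expressed genes was computed. Of 60 genes on the repair list, which takes in PARP and APOBEC3 family genes, 24 rose and 16 fell (31 and 13 with centred arrays). Its largest falls were in 4 PARP genes, PARP9 by 4.62 ± 0.10, PARP12 by 3.31 ± 0.12, PARP15 by 2.40 ± 0.13 and PARP14 by 1.5 ± 0.10. PARP9, PARP15 and PARP14 lie in 1 run of 6 neighbouring genes that all fell, with a median of -2.75, singled out after its values were seen. PARP8 rose by 2.02 ± 0.10, and the cytidine deaminase genes APOBEC3G and APOBEC3D rose by 1.95 ± 0.15 and 1.22 ± 0.14. The APOBEC3 genes are close paralogs, and their values may share signal. Of 92 chromatin modifiers, 41 rose and 21 fell (47 and 16 with centred arrays), with a median of 0.13. KDM5B, a histone H3 lysine demethylase, was at 6.59, 6.60, 6.11 and 6.04 in the uninduced arrays and at 10.84, 11.34, 10.50 and 11.24 in those labelled induced. KDM2B rose by 1.62 ± 0.09, HDAC7 by 1.51 ± 0.09 and PRDM15 by 1.45 ± 0.08. SMARCA2, an ATPase of the SWI/SNF remodeller, fell by 3.25 ± 0.10, and KDM7A fell by 2.49 ± 0.16. Of 55 splicing and RNA-binding genes, 18 rose and 17 fell (27 and 16 with centred arrays). The 3 IGF2BP genes, which stabilise mRNA, all passed as lower. IGF2BP1 fell by 2.83 ± 0.10, IGF2BP2 fell by 1.53 ± 0.17 and IGF2BP3 fell by 1.26 ± 0.10. The splicing regulators MBNL1 and MBNL3 rose by 2.72 ± 0.08 and 2.08 ± 0.11, and CELF2 and MSI2 by 2.42 ± 0.08 and 1.37 ± 0.12.

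**Figure D4:**
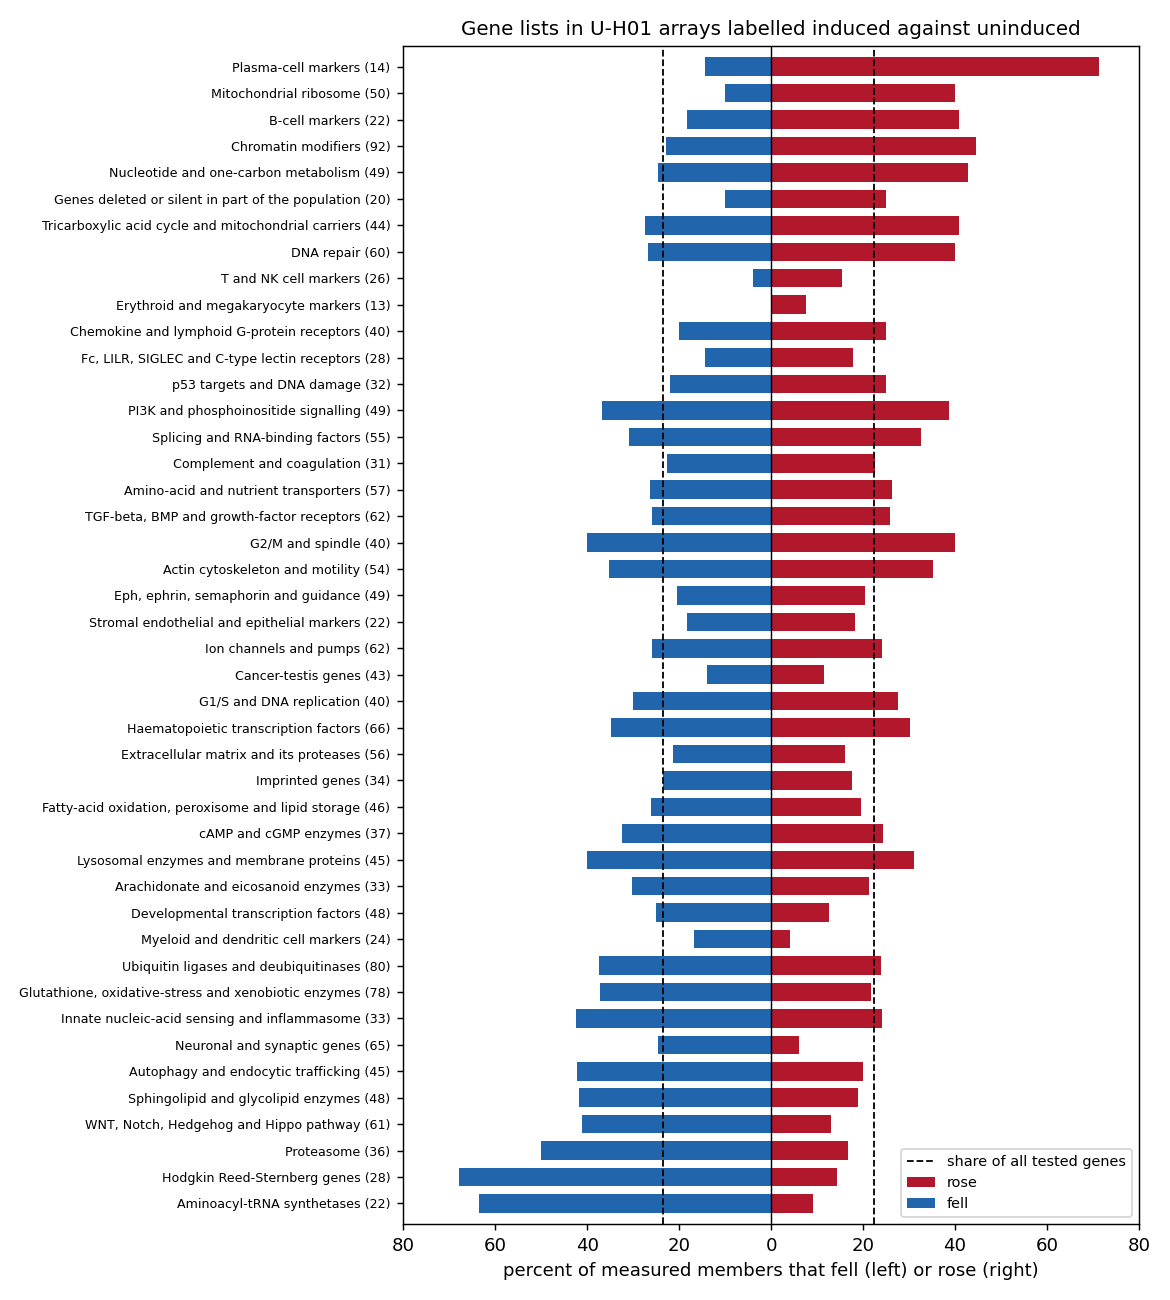
Percent of the measured members of each reported gene list with at least 10 measured that rose (right, red) or fell (left, blue) in the arrays labelled induced, with the number measured in brackets and dashed lines at the shares over all tested genes, 22.3% and 23.5%. Plasma-cell markers reach 71.4% on the right, and Hodgkin Reed-Sternberg genes and aminoacyl-tRNA synthetases reach 67.9% and 63.6% on the left.

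Neuronal, cancer-testis, imprinted and population-variable genes were examined as further traits of the cells. Of 65 neuronal and synaptic genes, 16 fell and 4 rose (12 and 10 with centred arrays), and 23 were at background in all 8 arrays. SNAP25, of synaptic vesicle fusion, was at 9.61, 9.09, 8.18 and 8.52 in the uninduced arrays and at 4.58, 4.86, 4.96 and 4.75 in those labelled induced. MAP1B, a microtubule protein, fell by 4.20 ± 0.13, and CHRNA5, a nicotinic receptor subunit, rose by 1.34 ± 0.15. Of 43 cancer-testis genes, 32 were at background in all 8 arrays, 5 rose and 6 fell (13 and 5 with centred arrays, and 3 rises without B1 D1, B1 Un1 or B2 Un1). PRAME fell by 2.52 ± 0.09, from 10.66 ± 0.07 to 8.13 ± 0.20 (SD, n = 4), MAGEB2 by 3.12 ± 0.10 and DDX43 by 2.13 ± 0.12, whereas LDHC, the lactate dehydrogenase of testis, rose by 1.77 ± 0.13. Of 34 imprinted genes, 6 rose and 8 fell (9 and 7 with centred arrays). The neighbours PEG10 and SGCE both fell, by 4.18 ± 0.19 and 3.50 ± 0.09, and MKRN3 rose by 1.68 ± 0.14. For PEG10 HBL-1 was at 10.17, like the uninduced arrays at 9.61. Of 20 genes deleted or silent in part of the human population, 5 rose and 2 fell (8 and 2 with centred arrays). UTS2, or urotensin-2, was at 3.18, 3.56, 3.30 and 3.43 in the uninduced arrays and at 8.21, 8.0, 7.99 and 7.78 in those labelled induced. CHI3L2, a chitinase-like protein, rose by 2.24 ± 0.21, and UGT2B17, a glucuronosyltransferase, fell by 1.84 ± 0.19.

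The differences also lay in runs along the genome. Of 18366 genes placed in the reference order, 180 lay in 27 runs of at least 6 consecutive genes that all rose, and 245 in 34 such runs that all fell. The longest run of rises held 11 zinc-finger genes from ZNF506 to ZNF430, with a median of 1.13. The next held 8 genes from ANP32E to RPRD2, with a median of 1.16. The longest runs of falls held 12 genes each. The run from DCTN2 to MARCHF9 had a median of -1.36 and includes B4GALNT1. The run from EIF5 to ATP5MJ had a median of -0.79, and a run of 11 genes from ID2 to KLF11 had one of -1.23. Zinc-finger genes also made up most of a run of 9 falls from ZNF615 to ZNF480 and all of a run of 8 falls from ZNF154 to ZNF417, with medians of -1.17 and -1.56. The call of ZNF154 is weak (-0.30 ± 0.11, adjusted p = 0.0447, limma). It was lost without B1 D1, B1 D2, B2 D1, B1 Un1 or B1 Un2 (adjusted p up to 0.185), with the replicate block (0.0537) and with centred arrays (0.226). It was also lost with U-H01 fitted alone (0.0562), all probe sets tested (0.0767), quantile normalization (0.127) and the trend and robust options (0.0502). In B2 alone the difference was -0.05 (adjusted p = 0.817, limma), and neither time point passed alone (0.27 and 0.149). Without ZNF154 that run holds 7 genes. Of 494 genes named ZNF with a number, those in runs included, 103 rose (20.9%) and 143 fell (28.9%), against 22.3% and 23.3% of all other genes. These runs and this count were singled out after the values were seen.

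Whole autosomes differed in the balance of rises and falls. Over 13640 autosomal genes with a placed promoter, 23.6% rose and 24.5% fell. On chromosome 22, 43.6% of 282 genes rose and 8.87% fell, and on chromosome 21, 34.1% of 173 rose and 10.4% fell. The opposite balance was found on chromosome 20, where 8.17% of 367 genes rose and 34.3% fell, and on chromosome 18, where 16.1% of 224 rose and 34.8% fell. On chromosome 7, 14.5% of 678 genes rose and 28.0% fell. Median differences per chromosome stayed small, from -0.07 on chromosome 18 to 0.17 on chromosome 22. DNA copy number was not measured here, and its part in these shares was not tested.

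**Figure D5:**
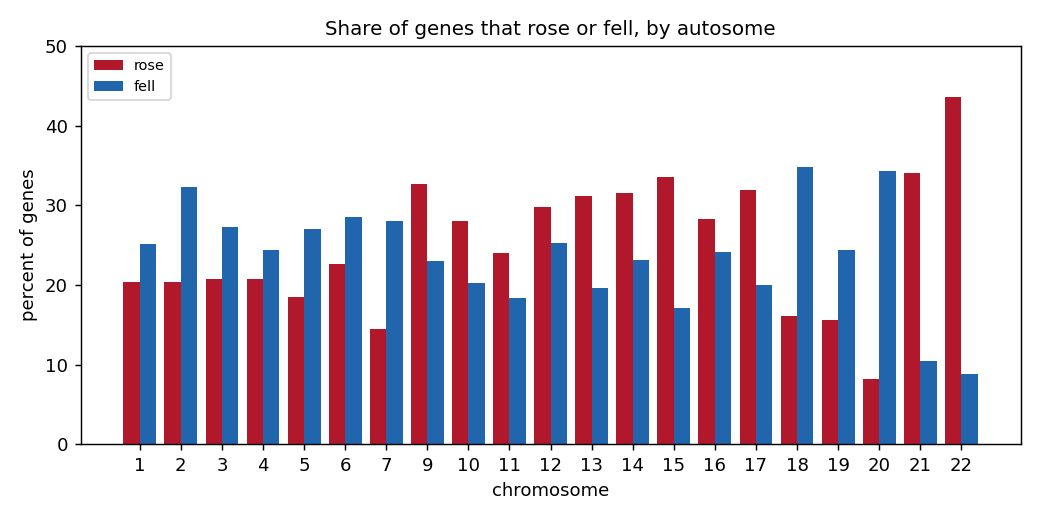
Percent of genes on each autosome that rose (red) or fell (blue) in the arrays labelled induced. Chromosome 22 has the highest share of rises, 43.6%, and chromosome 20 the lowest, 8.17%, and chromosome 8 is not analysed here.

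The differences were also read within each population and at each time point. With B1 alone 7283 genes passed and with B2 alone 6905, and 6654 and 6665 passed at the first and the second time point alone. STAG2 differed by 5.39 in B1 and 5.37 in B2, and ALOX15 by -6.68 and -6.45. CD79A differed by 5.07 at the first time point and 5.55 at the second. Among the 330 genes named here, 14 had changes that differed between B1 and B2, and no share over all tested genes is at hand to judge that count. Of these, GPR18 passed in B2 alone and not in B1, and the others passed in the same direction in both. TRIM59 fell by 1.21 in B1 and by 3.15 in B2, a difference of -1.95 (adjusted p = 0.000346, limma), and SLC25A27 fell by 3.89 and by 2.34, a difference of 1.55 (adjusted p = 0.0152, limma).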

How the data were processed

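Biotin-labelled RNA was hybridised to 12 single-colour arrays. The values used are log2 levels that the authors deposited after RMA, and per the submitters' processing notes Partek was used too. RMA gives arrays like distributions, which can hide a shift shared by all genes. Near background a difference understates the fold. Of 33297 probe sets, the platform annotation gave 1 symbol for 19460, several for 1754 and none for 12083, and those with 1 symbol were tested. By Entrez identifier 19429 matched the GRCh38.p14 gene table, and 0 symbols changed. The brightest probe set on average represented each of 769 genes that had several. For 23 genes no values are shown, and 1 gene list is not reported here. No pair of arrays held identical values.

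limma 3.58.1 in R 4.3.3 (lmFit, eBayes) was fitted to all 12 arrays, which share the estimate of spread. Its 7 terms were population, time point within each line and induction within each line, which left 5 residual degrees of freedom. Tests were two-sided, with Benjamini-Hochberg adjustment over the tested probe sets and calls at 0.05. The fit was tested on simulated data with known changes. The labels' protocols describe dividing a transduced population, so arrays that share a population and a time point pair. Their deviations from group means correlated at 0.14 and -0.02 (B1) and 0.10 and 0.03 (B2).

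The comparison, the lists and the naming rule were chosen with earlier results of these data known. The rule names RELB and REL, ranks 11 to 25 of the rises and of the falls with 1 direction in all 4 pairs, up to 4 called members each way of a list, defining cell type markers and members of the longest runs. Lists, runs, motifs and chromosomes were described without a test. Alternatives covered the pairing, the arrays in the fit, each population and time point, quantile normalization, centring, a filter on low values, the probe sets and the moderation. Figures were drawn with matplotlib 3.10.9 in Python 3.11.15. The number of arrays limits the precision.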

Additional observations from a re-analysis of the deposited data

Results flagged for a closer look

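Of 660 sets of 4 arrays, 1 for each gene named above in each group, 30 held an array that lay apart from the other 3 by Dixon's 95% criterion. By chance about 1 in 20 such sets would. They were spread over 7 of the 8 arrays, with none for B1 Un2 and at most 6 for any array.

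On B1 D2 ACVR2A was at 4.50 against 4.03 to 4.07, ID2 was at 4.64 against 4.0 to 4.10 and PRAME was at 7.84 against 8.21 to 8.24 on the other arrays of its group. On the same array PSMB10 was at 8.48 against 8.09 to 8.15, SLC39A8 was at 8.45 against 8.77 to 8.79 and SMAD1 was at 5.21 against 5.0 to 5.02. On B2 Un1 CFI was at 9.02 against 8.59 to 8.65, ELF1 was at 8.46 against 8.16 to 8.21 and FMNL2 was at 6.82 against 7.02 to 7.05 on the other arrays of its group. On the same array IGF2BP3 was at 8.79 against 8.57 to 8.60, MRPL28 was at 7.96 against 7.78 to 7.81 and PIK3R5 was at 5.59 against 5.30 to 5.32. On B1 Un1 CTPS2 was at 9.06 against 8.73 to 8.77 and CTSS was at 5.39 against 5.69 to 5.74 on the other arrays of its group. On B1 D1 DLX1 was at 5.45 against 5.89 to 5.92, IL18RAP was at 3.76 against 3.66 to 3.67 and PLA2G4A was at 3.09 against 3.25 to 3.28 on the other arrays of its group. On the same array PTGR2 was at 6.74 against 6.32 to 6.38 and SWAP70 was at 4.66 against 5.40 to 5.52. On B2 D1 IL1R1 was at 3.88 against 3.57 to 3.61, PLXNC1 was at 8.78 against 9.46 to 9.58 and RORA was at 9.89 against 10.29 to 10.30 on the other arrays of its group. On the same array TRAF1 was at 7.90 against 8.75 to 8.86. On B2 D2 MARCHF9 was at 5.96 against 6.37 to 6.44, SGK1 was at 5.46 against 5.37 to 5.38 and TBK1 was at 8.70 against 9.0 to 9.02 on the other arrays of its group. On B2 Un2 NKG7 was at 6.90 against 6.28 to 6.30, OR2V1 was at 4.98 against 4.69 to 4.72 and PSMC4 was at 9.74 against 9.87 on the other arrays of its group. On the same array UMPS was at 7.64 against 7.88 to 7.92.

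The populations B1 and B2 were compared by the difference between their changes, adjusted over all probe sets in limma. This difference passed in 14 of the 330 genes named above, with 2 arrays a group in each population and no share over all tested genes beside it. Of these, GPR18 did not pass in B1 alone (adjusted p = 0.484, limma), and the others passed in the same direction in both populations. CD274 changed by -6.23 in B1 and -5.36 in B2, a difference of 0.87 (adjusted p = 0.0398). CNN2 changed by -3.17 in B1 and -4.32 in B2, a difference of -1.15 (adjusted p = 0.0255). GATA3 changed by -5.73 in B1 and -4.65 in B2, a difference of 1.08 (adjusted p = 0.0159). GPR15 changed by -5.02 in B1 and -6.21 in B2, a difference of -1.19 (adjusted p = 0.011). GPR18 changed by -0.14 in B1 and -1.35 in B2, a difference of -1.21 (adjusted p = 0.0227). IL5RA changed by -5.35 in B1 and -4.34 in B2, a difference of 1.0 (adjusted p = 0.0239). LAMP3 changed by -3.20 in B1 and -2.31 in B2, a difference of 0.89 (adjusted p = 0.0427). LIMA1 changed by -2.22 in B1 and -3.09 in B2, a difference of -0.86 (adjusted p = 0.0421). PEG10 changed by -3.60 in B1 and -4.76 in B2, a difference of -1.16 (adjusted p = 0.0159). PLAC8 changed by 5.37 in B1 and 4.43 in B2, a difference of -0.94 (adjusted p = 0.0454). SLC16A4 changed by -6.53 in B1 and -5.62 in B2, a difference of 0.91 (adjusted p = 0.0268). SLC25A27 changed by -3.89 in B1 and -2.34 in B2, a difference of 1.55 (adjusted p = 0.0152). TFRC changed by 1.75 in B1 and 0.91 in B2, a difference of -0.84 (adjusted p = 0.0424). TRIM59 changed by -1.21 in B1 and -3.15 in B2, a difference of -1.95 (adjusted p = 0.000346).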

How the results depend on the processing

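Counts of genes that passed stayed within 1.5 times the reported value, with 2 exceptions among the counts over all genes. With each array centred on the median of its tested probe sets 6981 genes were higher and 3414 lower. Among probe sets above the median level, where fewer genes were tested, 838 fell over 2-fold. Genes at background in 1 group and high in the other numbered 121 higher and 294 lower at a difference of 2 log2 units, and 114 lower with the array's lower quartile as background. Runs of at least 5 genes numbered 77 higher and 66 lower, and those of at least 8 genes 2 and 9. The construction of these settings changes what is counted, and no other cause was tested. Leaving out each of the 8 arrays in turn gave 7710 to 8114 genes that passed in all. With each population and time point as a replicate block 8181 passed, and the pairing changed the calls of 2 named genes, IL1RL2 (adjusted p = 0.067, limma) and ZNF154 (0.0537). Of 316 named genes that passed, 313 did so without any 1 array, the exceptions being IL1RL2, RELA and ZNF154. Within 1 population or time point the calls of 4 to 8 named genes were lost. No named gene that passed changed direction under any of these settings. Near background the levels limit how large a difference can be measured.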
